A study of Homo sapiens with 6 samples.

Results

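The final 10% of a coding sequence is the stretch that ribosomes read just before the stop codon. Here it is the final 20 of the 200 bins into which the deposited tables divide each coding sequence, called the last-tenth window below. Neighbouring bins can differ in width, and in coding sequences under 200 bases the bins run past the stop. The stretches were taken from every protein-coding RefSeq transcript listed in all 3 tables, which gave 17641 transcripts. Genes were then compared through 1 transcript each, the one with the highest mean level, and 4146 genes had enough depth for a comparison.

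The footprints of ribosomes were read in CHL-1, a human line grown from a melanoma, in 3 groups of 2 libraries. In the first group, CHL-1 cells were treated for 20 minutes with 10 mM AZC (azetidine-2-carboxylic acid, an analog of proline that is built into proteins) and 20 µM MG132, an inhibitor of the proteasome. The second group is a CHL-1 line edited by CRISPR at SNORD50A/B, a pair of small nucleolar RNA genes, and it received no such agent. Whether that line is 1 clone is not stated in the labels. The third group is the untreated parental CHL-1 line. The lysis buffer of all groups held cycloheximide, which stops elongating ribosomes. In each group 1 of the 2 libraries is labelled as freed of ribosomal RNA.

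Each group has 1 deposited table and no column per library. No spread between replicates can be had from these tables, so every comparison below is a comparison of 2 tables and carries no test. Summed depth, counted in read bases, was 367.25 megabases in the AZC + MG132 table, 586.45 megabases in the CRISPR table and 473.73 megabases in the parental table. The melanocyte and neural crest genes SOX10 and MCAM had levels of 322.5 and 304.2 bases per megabase of summed depth in the AZC + MG132 table. They had 352.5 and 346.2 in the CRISPR table and 395.7 and 388.1 in the parental table. Of 12 such markers 10 were listed in AZC + MG132, 9 in CRISPR and 10 in parental cells. MLANA, a pigment-cell antigen, had levels of 2.04 in AZC + MG132, 1.97 in CRISPR and 1.27 in parental cells, and TYR and TYRP1, enzymes of pigment synthesis, were listed in none. Of 11 markers of other cell types, 2 were listed in AZC + MG132, 3 in CRISPR and 2 in parental cells.

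At a stop codon the ribosome has no matching tRNA. The release factors eRF1 (gene ETF1) and eRF3 (gene GSPT1) enter instead, the finished protein is cut free, and ABCE1 helps to split the ribosome into its subunits. Termination is slower than an average elongation step, so ribosome footprints often pile up at the stop. Depth ahead of the stop also depends on which transcript is made, on stalling by the nascent chain and on recoding events such as programmed frameshifts.

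The last-tenth share is the mean depth of a gene's last 20 coding bins over its mean over all 200, so that 1 is the gene's own coding mean. The median share was 0.922 in AZC + MG132, 1.06 in CRISPR and 1.09 in parental cells. The quartiles were 0.673 and 1.199 in the AZC + MG132 table, 0.754 and 1.41 in the CRISPR table and 0.839 and 1.36 in the parental table. Shares above 1 were held by 42.7% of genes in the AZC + MG132 table, by 55.5% in the CRISPR table and by 58.9% in the parental table. Over all 17641 transcripts, the last-tenth window took 8.98% of coding depth in AZC + MG132, 10.8% in CRISPR and 10.7% in parental cells. The treated cells had the lowest value by each of these measures. The CRISPR and parental medians lay close together, while the CRISPR lower quartile lay between the others. Shares of 2 or more were held by 1.81% of genes in AZC + MG132, 6.61% in CRISPR and 3.43% in parental cells.

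The depth was not even within the window. Over its first 10 bins the mean depth over genes, scaled to each gene's coding mean, was 0.834 in AZC + MG132, 0.987 in CRISPR and 1.005 in parental cells. Over the next 5 bins it was 0.907 in AZC + MG132, 1.054 in CRISPR and 1.08 in parental cells. Over the final 5 bins it was 1.27 in AZC + MG132, 1.45 in CRISPR and 1.40 in parental cells. The final coding bin alone stood at 1.65 in AZC + MG132, 1.85 in CRISPR and 1.71 in parental cells. The mean of the first bin of the 3′ UTR was 1.57 in AZC + MG132, 1.85 in CRISPR and 1.61 in parental cells, and the second was at 0.572 in AZC + MG132, 0.623 in CRISPR and 0.580 in parental cells. The median over genes was 1.23 in AZC + MG132, 1.42 in CRISPR and 1.38 in parental cells in the final coding bin, and 0.769 in AZC + MG132, 0.858 in CRISPR and 0.843 in parental cells in the first bin after it. Summed depth per bin was thus higher over the final bins before the stop in all 3 tables, and for the median gene lower from the first bin after it. The 3′ UTR is divided into 100 bins, which need not be as wide as the coding bins, and depth was not corrected for width. How far bin width sets the values after the stop was not tested.

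**Figure D1:**
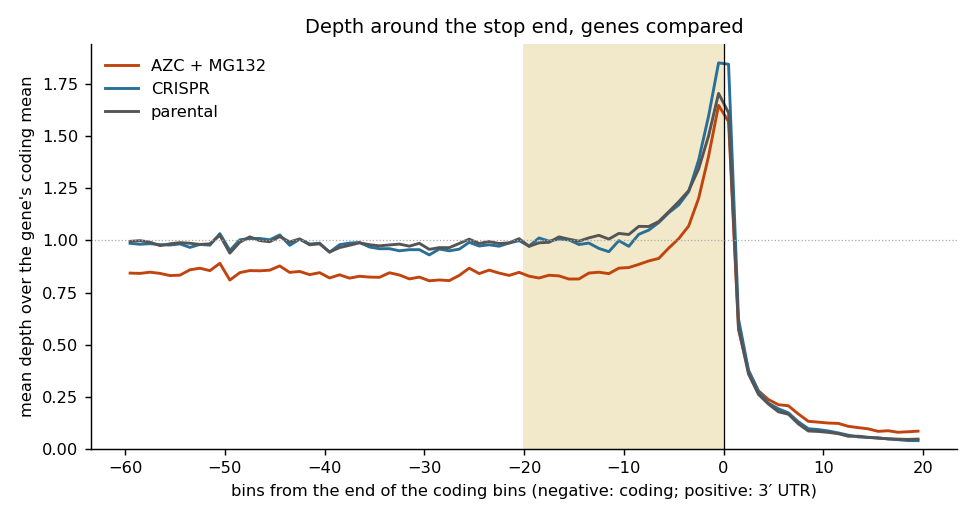
Mean depth of 4146 genes around the stop end, each gene scaled to its own coding mean (y axis, 1 = coding mean), by bin counted from the end of the coding bins (x axis; shaded, the last 20 coding bins; right of 0, the 3′ UTR). The AZC + MG132 line runs below the others through most of the coding bins shown and peaks at 1.65 in the final coding bin, against 1.85 for CRISPR and 1.71 for parental. Depth was not corrected for bin width, which can differ between coding and 3′ UTR bins.

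Against the parental table, the AZC + MG132 table had less depth in the last-tenth window relative to the coding mean. The last-tenth shift, the log2 ratio of the 2 shares, with a pseudocount of 30 bases, had a median of -0.24 over 4125 genes, and 33.1% of genes had a shift above 0. A shift of 1 or more in size, that is 2-fold, is used below as a limit of size. It was passed upward by 91 genes, 2.21% of those compared, and downward by 407 genes, 9.87%, with no replicate to set beside these counts. Genes past it in either direction were 19.7% of the lowest quartile by level and 3.67% of the highest. The counts of gene lists below are set beside all genes and were not matched by level. The first 20 coding bins of the same genes went the other way, with a median share of 1.44 in the AZC + MG132 table against 0.926 in the parental table. Against coding bins 21 to 180, which leave out both ends, the median shift was -0.17, with 3.78% of genes 2-fold higher and 422 genes lower.

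The step at the end itself had close medians in these 2 tables, with a wide spread over genes. The end step is the log2 ratio of the last 20 coding bins over the 20 bins before them. Its median was 0.20 in AZC + MG132, 0.18 in CRISPR and 0.17 in parental cells, and it was above 0 for 60.4% of genes in AZC + MG132, 58.3% in CRISPR and 60.9% in parental cells. The stop peak, the log2 ratio of the final 5 coding bins over the 20 bins ahead of the window, had medians of 0.46 in AZC + MG132, 0.40 in CRISPR and 0.37 in parental cells. For AZC + MG132 over parental, the end step was 2-fold higher in 11.8% of genes and lower in 10.7%, and the stop peak in 19.4% and 17%. Relative to the stretch just ahead of it, the median of treated cells was thus not lower than that of parental cells, whereas relative to the whole coding sequence it was.

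Against the parental table, the CRISPR table had a median last-tenth shift of -0.02, with 48.1% of 4124 genes above 0. A 2-fold higher share was found for 3.59% of them, and a 2-fold lower share for 320 genes, 7.76%. The CRISPR table had fewer covered bins: all 20 bins held depth in 42.5% of its genes, against 65.9% in the parental table and 51.3% in the AZC + MG132 table. Genes past 2-fold against the parental table were 23.8% of the lowest quartile by level and 1.06% of the highest, and how far sampling of fragments sets these counts was not tested. Both comparisons share the parental table. Set against the AZC + MG132 table, the CRISPR table had a median shift of 0.22, with 453 genes 2-fold higher, 11% of 4121, and 260 genes lower, 6.31%.

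**Figure D2:**
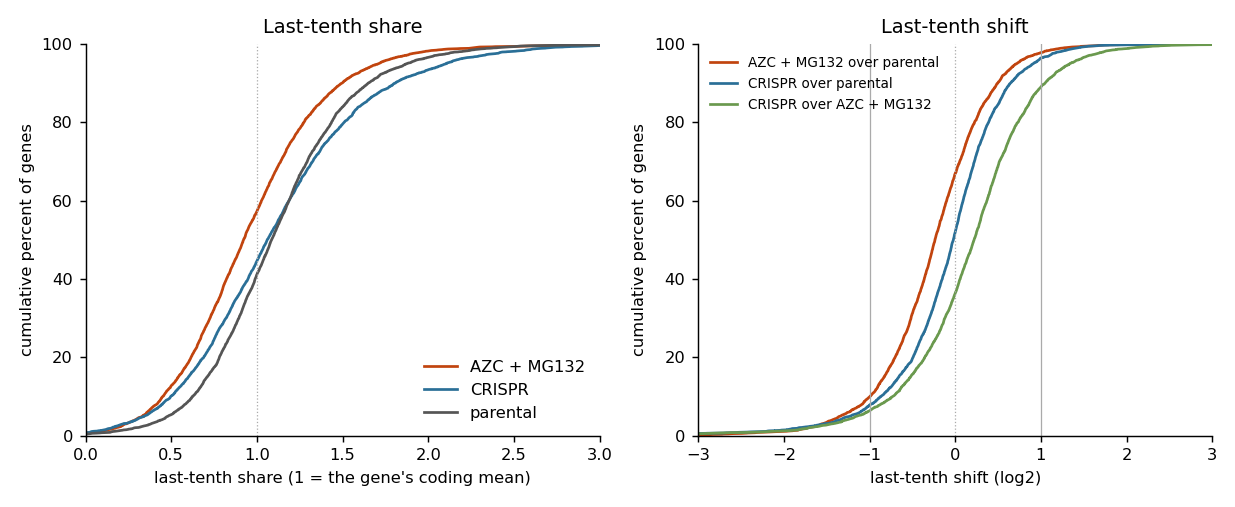
Left, cumulative percent of 4146 genes by last-tenth share in each table; right, cumulative percent of genes by last-tenth shift (log2) in each of the 3 comparisons, with lines at 2-fold. The AZC + MG132 curve of shares lies left of the others with a median of 0.922, and the AZC + MG132 over parental shifts have a median of -0.24.

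The order of genes by share was alike but not the same in the 3 tables. Spearman's rho over 4146 genes was 0.479 between AZC + MG132 and parental, 0.547 between CRISPR and parental and 0.443 between CRISPR and AZC + MG132. Over the 1244 genes with at least 4 times the minimum depth it was 0.649 between AZC + MG132 and parental, 0.748 between CRISPR and parental and 0.642 between CRISPR and AZC + MG132. These values are across genes, which are no independent replicates, and the tables share each transcript's sequence. A share above 1 in all 3 tables was found for 1084 genes and a share under 1 in all 3 for 936. Only 34 genes had a share of 2 or more in all 3 tables, and 41 had a share under 0.25 in all 3.

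Several well-covered genes held more depth at the stop end than along the rest of their coding sequence. PTMA, which encodes the acidic nuclear protein prothymosin alpha, had a share of 1.82 in AZC + MG132, 2.18 in CRISPR and 2.64 in parental cells. Its final 5 bins stood above the 20 bins ahead of the window by a log2 ratio of 3.33 in AZC + MG132, 3.85 in CRISPR and 3.58 in parental cells. HINT1, a small nucleotide hydrolase, had shares of 1.82 in AZC + MG132, 2.07 in CRISPR and 2.76 in parental cells, and ALYREF, an adaptor for messenger export, had 1.54 in AZC + MG132, 2.41 in CRISPR and 2.54 in parental cells. For PTMA, HINT1 and ALYREF the AZC + MG132 table was lowest and the parental table highest.

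COX6A1, a subunit of cytochrome c oxidase, had shares of 1.81 in AZC + MG132, 2.74 in CRISPR and 2.46 in parental cells. TMED10, a cargo receptor of early secretory vesicles, had 1.63 in AZC + MG132, 2.06 in CRISPR and 2.44 in parental cells. C1orf198 went the other way, with 3.002 in AZC + MG132, 2.83 in CRISPR and 2.61 in parental cells. IFITM3, an interferon-induced membrane protein that blocks virus entry, had 3.10 in AZC + MG132, 2.60 in CRISPR and 3.02 in parental cells. The last 2 steps of 5 bins stood at 4.53 and 5.94 times its coding mean in treated cells, against 4.10 and 5.25 in parental cells. The first 5 coding bins were high too, at 4.88 in treated cells against 2.87 in parental cells. IFITM1 and IFITM2, which are close copies of it, had no depth in their last-tenth window in any table. Their mean levels were 26.76 and 17.05, against 153.85 for IFITM3. Whether reads were split unevenly among these 3 genes was not tested.

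RTN4 had the highest share of the well-covered genes in the parental table, and its transcripts had different shares. The longest transcript (NM_020532, the Nogo-A form) had 2.87 in AZC + MG132, 4.32 in CRISPR and 4.18 in parental cells. All RTN4 transcripts end in the same reticulon domain, and the long form adds a large middle part. The shorter NM_153828 had 0.832 in AZC + MG132, 1.599 in CRISPR and 1.10 in parental cells. In the paralog RTN3, transcript NM_201428 had 2.82 in AZC + MG132, 3.76 in CRISPR and 4.14 in parental cells. Its NM_006054 had 0.799 in AZC + MG132, 0.883 in CRISPR and 1.12 in parental cells.

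**Figure D3:**
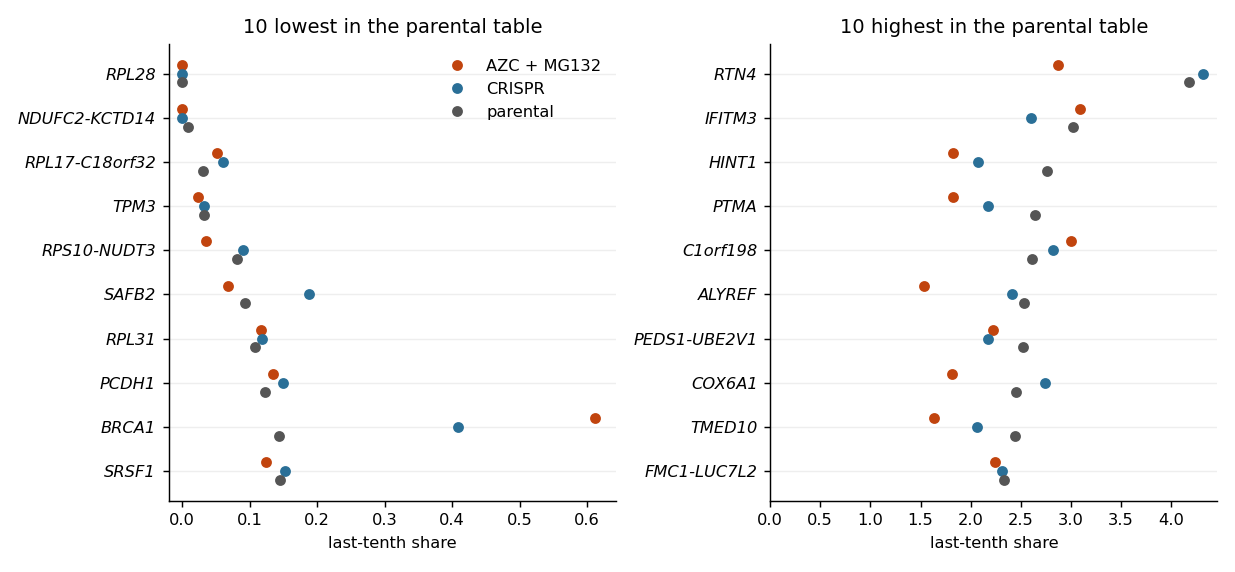
Last-tenth share of the 10 genes with the lowest (left) and the 10 with the highest (right) shares in the parental table, among genes with at least 4 times the minimum depth and at least 120 of the first 180 coding bins covered; each dot is 1 table. The low genes lie near 0 in all 3 tables except BRCA1, and ALYREF, HINT1 and PTMA lie lower in AZC + MG132 than in parental.

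Among the 10 lowest shares of well-covered genes in the parental table were several genes whose other transcripts held more depth, and readthrough rows. RPL28, a ribosomal protein, was represented by NM_001136134, and its window held no depth in any table, while the common form NM_000991 had shares of 0.476 in AZC + MG132, 1.03 in CRISPR and 0.893 in parental cells. TPM3, a tropomyosin, was represented by NM_001043352, with 0.0239 in AZC + MG132, 0.0326 in CRISPR and 0.0320 in parental cells. Its transcript NM_153649 had 0.806 in AZC + MG132, 0.912 in CRISPR and 1.09 in parental cells. SRSF1, a splicing factor, was represented by NM_001078166, with 0.125 in AZC + MG132, 0.152 in CRISPR and 0.145 in parental cells. Its NM_006924 had 0.545 in AZC + MG132, 1.19 in CRISPR and 0.913 in parental cells. Readthrough rows that join 2 genes lay low as well. RPL17-C18orf32 had 0.0516 in AZC + MG132, 0.0612 in CRISPR and 0.0307 in parental cells, RPS10-NUDT3 had 0.0352 in AZC + MG132, 0.0905 in CRISPR and 0.0816 in parental cells, and NDUFC2-KCTD14 had 0 in the AZC + MG132 and CRISPR tables and 0.00924 in the parental table.

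In 45 of the 1704 genes with several transcripts above the minimum, 1 transcript had a share under 0.25 in all 3 tables while another kept 0.75 or more in all 3, a pattern sought after values were seen. Of the 41 genes compared with a share that low in all 3, 4 had such another transcript. CDC42 is a small GTPase of the cytoskeleton. Its NM_001791 had shares of 1.51 in AZC + MG132, 1.38 in CRISPR and 1.30 in parental cells, while NM_044472 had 0.00542 in AZC + MG132, 0 in CRISPR and 0.0284 in parental cells. STMN1, a regulator of microtubules, had 0.894 in AZC + MG132, 1.02 in CRISPR and 1.07 in parental cells for NM_005563, and no depth in the window of NM_001145454. LDHA, lactate dehydrogenase, had 0.867 in AZC + MG132, 1.33 in CRISPR and 1.62 in parental cells for NM_001165416. Its NM_001165415 had 0.0563 in AZC + MG132, 0.0140 in CRISPR and 0.00417 in parental cells. KDELR2, a retrieval receptor of the ER, had 0.850 in AZC + MG132, 1.33 in CRISPR and 0.871 in parental cells for NM_006854. Its NM_001100603 had 0 in AZC + MG132, 0 in CRISPR and 0.107 in parental cells. The limits that chose these genes fix which transcript is the higher one in each table.

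Other genes had shares between these extremes. LMNA encodes lamin A and lamin C, which share most of their coding sequence and differ at the C terminus. The lamin A transcript NM_170707 had shares of 0.190 in AZC + MG132, 0.319 in CRISPR and 0.233 in parental cells. The lamin C transcript NM_005572 had 1.07 in AZC + MG132, 1.42 in CRISPR and 1.24 in parental cells. LAMP2, a membrane protein of lysosomes, has 3 alternative tails. NM_013995 had shares of 0.705 in AZC + MG132, 1.09 in CRISPR and 0.865 in parental cells, NM_002294 had 0.238 in AZC + MG132, 0.328 in CRISPR and 0.436 in parental cells, and NM_001122606 had no depth there. For both genes the same transcript was the higher one in all 3 tables.

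XBP1 and OAZ1 are known for arrest and recoding. XBP1 encodes a transcription factor of the unfolded protein response, and the protein made from its unspliced messenger ends in an arrest peptide that pauses the ribosome and draws the messenger to the ER membrane. The unspliced frame NM_005080 had a share of 3.64 in AZC + MG132, 1.42 in CRISPR and 2.36 in parental cells. Its final 5 bins stood at 9.20 times the coding mean in treated cells, at 3.46 in CRISPR cells and at 4.67 in parental cells. The spliced frame NM_001079539, which runs on past that point, had shares of 0.142 in AZC + MG132, 0.135 in CRISPR and 0.295 in parental cells. The window of NM_005080 held 7823 bases of depth in AZC + MG132, 2841 in CRISPR and 3880 in parental cells, and the shift of 0.62 for AZC + MG132 over parental stayed under 2-fold.

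OAZ1 encodes antizyme, an inhibitor of polyamine synthesis whose full protein is made only when ribosomes shift frame early in the messenger. Its depth lay early: in coding bins 11 to 15 it was 8.73 times the coding mean in AZC + MG132, 10.9 in CRISPR and 9.64 in parental cells. The window had shares of 0.334 in AZC + MG132, 0.159 in CRISPR and 0.212 in parental cells. OAZ2, a second antizyme, had 0.803 in AZC + MG132, 0.565 in CRISPR and 0.991 in parental cells. AMD1, an enzyme of polyamine synthesis, had shares of 1.79 in AZC + MG132, 0.524 in CRISPR and 1.36 in parental cells, and its shift for CRISPR over parental was -1.337. ODC1, the enzyme that antizyme binds, had 1.19 in AZC + MG132, 0.896 in CRISPR and 1.49 in parental cells. The list of arrest and recoding genes, which holds XBP1 and OAZ1, was set with earlier results of these data known. Its 11 compared genes had median shares of 1.19 in AZC + MG132, 0.962 in CRISPR and 1.33 in parental cells.

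**Figure D4:**
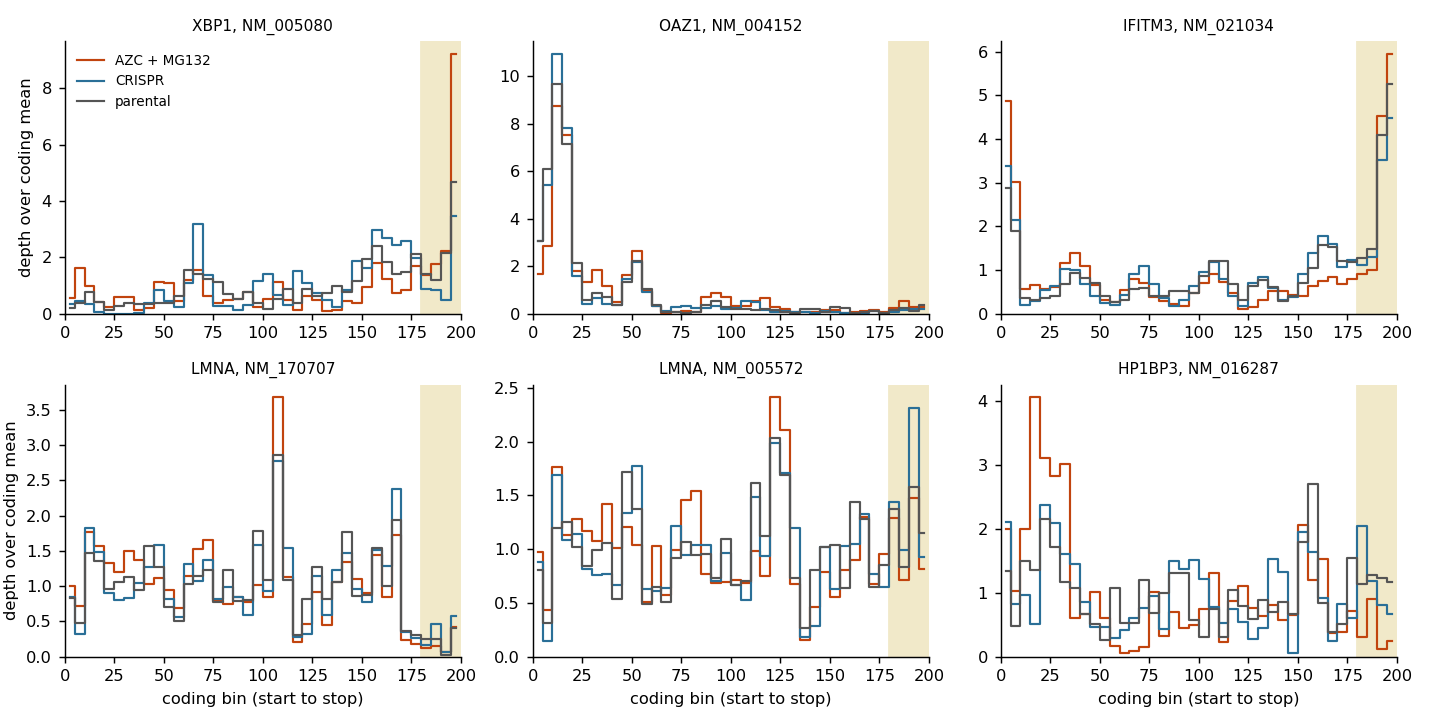
Depth over the coding mean (y axis) along the 200 coding bins (x axis, start to stop, in steps of 5 bins) of 6 transcripts in the 3 tables; the last 20 bins are shaded. XBP1 and IFITM3 climb in the final bins, OAZ1 and the lamin A transcript NM_170707 lie low there, the lamin C transcript NM_005572 does not, and HP1BP3 has a share of 0.395 in AZC + MG132, against 1.21 in parental.

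Selenoproteins that place selenocysteine close to the C terminus read through a UGA codon near the end. The lists of genes named from here on were also set with earlier results of these data known. SELENOK, an ER membrane protein of this class, had shares of 0.154 in AZC + MG132, 0.192 in CRISPR and 0.283 in parental cells. TXNRD1, thioredoxin reductase, had 1.22 in AZC + MG132, 1.45 in CRISPR and 1.62 in parental cells. SELENOS, which works in removal of misfolded ER proteins, had 1.09 in AZC + MG132, 1.46 in CRISPR and 1.72 in parental cells. SELENOK therefore lay low in each table, and the other 3 of the 4 compared genes of this list, TXNRD1, SELENOS and SELENOI, did not.

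Of the termination, recycling and rescue factors, 16 of 25 listed genes were compared. Their median shares were 0.848 in AZC + MG132, 1.01 in CRISPR and 1.15 in parental cells. ETF1 had shares of 0.973 in AZC + MG132, 1.03 in CRISPR and 0.828 in parental cells, GSPT1 had 1.16 in AZC + MG132, 1.26 in CRISPR and 1.15 in parental cells, and ABCE1 had 1.62 in AZC + MG132, 0.968 in CRISPR and 1.15 in parental cells. Shares of ETF1, GSPT1 and ABCE1 stayed within 2-fold in each comparison. For AZC + MG132 over parental, 3 of the 16 were 2-fold lower, against 9.87% of all genes, and none was higher. They were HBS1L, a rescue factor for stalled ribosomes, with 0.421 in treated against 1.202 in parental cells, LTN1, a ubiquitin ligase for stalled chains, with 0.337 in treated against 0.905 in parental cells, and TCF25, of the ribosome quality control complex, with 0.602 in treated against 1.342 in parental cells. TCF25 was also lower in the CRISPR table, at 0.293, a shift of -2.10.

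In each of the 14 gene lists the median share was lower in the AZC + MG132 table than in the parental table. Proteasome subunits, the target complex of MG132, had medians of 0.806 in AZC + MG132, 1.25 in CRISPR and 1.16 in parental cells. Their median shift for AZC + MG132 over parental was -0.50, against -0.24 over all genes, and 7 of 35 were 2-fold lower, against 9.87% of all genes, with none higher. PSMB7, a catalytic subunit of the core, had 0.824 in treated cells against 1.94 in parental cells. PSMD13, a lid subunit, had 0.482 in treated against 1.13 in parental cells, and PSME2, an activator subunit, had 0.529 in treated against 1.81 in parental cells. PSMC1, an ATPase of the base, lay the other way with 1.18 in treated against 0.812 in parental cells. PSME1, another activator subunit, was represented by NM_176783 and counts among the 7. This transcript had 0.0196 in treated against 0.0645 in parental cells, a shift of -1.24 (-1.75 for CRISPR over parental). Its window held little depth, with 45.8 bases in AZC + MG132, 15.96 in CRISPR and 165.5 in parental cells. Over the last 10 bins its shift was 0.13 for AZC + MG132 and 0.34 for CRISPR, both over parental. The PSME1 transcript NM_006263 had nearly the same mean level. Its shares were 0.593 in AZC + MG132, 0.625 in CRISPR and 1.47 in parental cells. In the CRISPR table PSMB7 and PSMD13 had 2.29 and 1.08, and PSME2 had 0.608.

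Cytosolic ribosomal proteins, with 79 of 86 genes compared, had median shares of 0.846 in AZC + MG132, 1.08 in CRISPR and 1.09 in parental cells. RPL3 had shares of 1.17 in AZC + MG132, 1.62 in CRISPR and 1.39 in parental cells and a stop peak of 2.28 in AZC + MG132, 2.42 in CRISPR and 2.16 in parental cells. RPL7 had 0.717 in AZC + MG132, 0.844 in CRISPR and 0.783 in parental cells, with a stop peak below 0 in each table. Mitochondrial ribosomal proteins had medians of 0.885 in AZC + MG132, 1.08 in CRISPR and 1.16 in parental cells, and 13 of 63 were 2-fold lower in treated than in parental cells, with none higher, against 9.87% lower and 2.21% higher of all genes. For CRISPR over parental 4 were higher and 6 lower, against 3.59% and 7.76% of all genes.

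Replication-dependent histones, whose messengers lack a poly(A) tail, had medians of 0.680 in AZC + MG132, 1.01 in CRISPR and 0.917 in parental cells. Their median shift for AZC + MG132 over parental was -0.38, and 1 of 31 was 2-fold lower, against 9.87% of all genes. That was H1-3, with 0.613 in treated cells against 2.08 in parental cells. Histone genes are near-identical copies, and H3C14 and H3C15 had shares of 0.394 and 0.395 in treated cells and both 0.604 in parental cells, so their values cannot be told apart.

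Cytoskeletal genes, 12 of 12 compared, had medians of 0.751 in AZC + MG132, 0.907 in CRISPR and 0.955 in parental cells. Their median stop peak was below 0 in all 3 tables, at -1.14 in AZC + MG132, -0.79 in CRISPR and -1.06 in parental cells. TUBB3, a beta tubulin of neurons, held a share of 1.64 in AZC + MG132, 2.60 in CRISPR and 1.47 in parental cells with a stop peak of -3.34 in AZC + MG132, -3.24 in CRISPR and -2.995 in parental cells. Depth in TUBB3 thus lay within the window and not in its final bins. ACTB had shares of 0.704 in AZC + MG132, 1.16 in CRISPR and 0.972 in parental cells. Tubulins share long identical stretches, and whether reads were split among them was not tested.

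Of the cytosolic chaperones, 31 of 40 were compared. HSPA8, the constitutive cytosolic HSP70, had shares of 0.866 in AZC + MG132, 1.28 in CRISPR and 1.22 in parental cells. HSPA5, the HSP70 of the ER, had 1.52 in AZC + MG132, 1.29 in CRISPR and 1.337 in parental cells. HSP90AB1 had 1.10 in AZC + MG132, 1.35 in CRISPR and 1.44 in parental cells, and HSP90AA1 had 1.33 in AZC + MG132, 1.38 in CRISPR and 1.335 in parental cells. FKBP4, a cochaperone of HSP90, had 0.634 in treated cells against 1.48 in parental cells and was the 1 of the 31 past 2-fold for AZC + MG132 over parental, against 9.87% lower of all genes. Of 23 ER folding genes compared, ERO1A, an oxidase of disulfide formation, was likewise the 1 past 2-fold for AZC + MG132 over parental, with 0.525 in treated against 1.35 in parental cells. Both counts are below the share of all genes, but the lists were not matched to all genes by level.

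**Figure D5:**
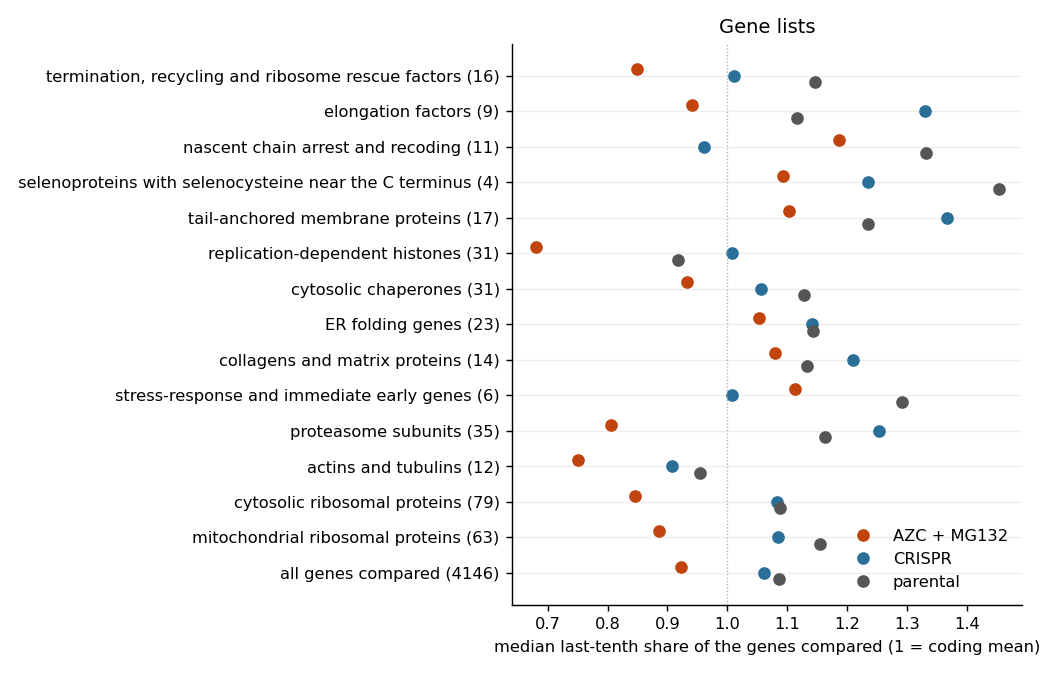
Median last-tenth share (x axis, 1 = coding mean) of the compared genes of each list and of all genes, with the number of genes in brackets and 1 dot per table. In each list the AZC + MG132 dot lies left of the parental dot; for all 4146 genes it lies at 0.922 and the parental dot at 1.09.

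Tail-anchored membrane proteins carry their only membrane segment at the C terminus, so it is still in the ribosome at the stop. The 17 compared had medians of 1.10 in AZC + MG132, 1.37 in CRISPR and 1.24 in parental cells. SEC61B, a subunit of the ER channel, had 1.47 in AZC + MG132, 1.86 in CRISPR and 1.92 in parental cells, and TOMM22, a receptor of the outer mitochondrial membrane, had 1.40 in AZC + MG132, 1.71 in CRISPR and 1.81 in parental cells. BAX, a regulator of cell death, had 0.388 in AZC + MG132, 1.02 in CRISPR and 0.817 in parental cells. With the pseudocount the shift of BAX for AZC + MG132 over parental was -0.97, and none of the 17 was past 2-fold, against 2.21% higher and 9.87% lower of all genes. For CRISPR over parental 1 was lower, RHOT2, a mitochondrial GTPase, with 0.339 in CRISPR against 0.770 in parental cells. Elongation factors had medians of 0.941 in AZC + MG132, 1.33 in CRISPR and 1.12 in parental cells over 9 genes, and collagens and matrix proteins had 1.08 in AZC + MG132, 1.21 in CRISPR and 1.13 in parental cells over 14 genes. None of these 23 genes was past 2-fold for AZC + MG132 over parental, against 2.21% higher and 9.87% lower of all genes. COL14A1, given below, was not on that list.

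Single genes with the largest shifts are given next, from those with at least 4 times the minimum depth and at least 120 of the first 180 bins covered. For AZC + MG132 over parental the lowest shift was that of SF1, a factor that binds the branch point in splicing, with 0.145 in treated cells against 0.502 in parental cells, a shift of -1.74. HP1BP3, a chromatin protein, had 0.395 in treated against 1.21 in parental cells, a shift of -1.58. EIF3G, an initiation factor subunit, had 0.183 in treated against 0.515 in parental cells, and in the CRISPR table it had 0.173, so it lay low in both. SRSF3, a splicing factor, had 0.215 in treated against 0.550 in parental cells and DDX3X, an RNA helicase, had 0.309 in treated against 0.783 in parental cells. COX7B had 0.473 in treated against 1.29 in parental cells and CYCS, cytochrome c, had 0.474 in treated against 1.17 in parental cells. In the CRISPR table the share was 1.17 for HP1BP3, 1.14 for COX7B and 1.02 for CYCS.

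The highest shift for AZC + MG132 over parental was that of BRCA1, a DNA repair gene, with 0.612 in treated cells against 0.144 in parental cells and a shift of 2.04. Its window held 2319 bases of depth in AZC + MG132, 2697 in CRISPR and 646 in parental cells. Another BRCA1 transcript, NM_007294, had shares of 1.78 in AZC + MG132, 1.32 in CRISPR and 0.534 in parental cells. Both rows hold nearly the same depth in the window, so they are 1 observation. The row compared, NM_007300, had coding depths of 37885 bases in AZC + MG132, 65851 in CRISPR and 44859 in parental cells. NM_007294 had 13053 in AZC + MG132, 20492 in CRISPR and 12115 in parental cells. Most of the coding depth behind the parental share of 0.144 was thus absent from NM_007294. That transcript alone lies below the depth limit set for the genes given here. COL14A1, a collagen, had 1.36 in treated against 0.617 in parental cells, a shift of 1.13. ANKRD17 had 1.29 in treated against 0.636 in parental cells, and SMARCC1, a chromatin remodelling subunit, had 1.22 in treated against 0.632 in parental cells, a shift of 0.95. SF3B3, a splicing factor subunit, had 1.42 in treated against 0.800 in parental cells. Of the 10 highest shifts, BRCA1, RPL36A-HNRNPH2, COL14A1 and ANKRD17 were past 2-fold.

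For CRISPR over parental the lowest shift was that of SF3B4, a splicing factor subunit, with 0.0698 in the CRISPR table against 0.465 in the parental table and a shift of -2.61. In the AZC + MG132 table it had 0.247. KNTC1, a kinetochore protein, had 0.462 in CRISPR against 1.38 in parental cells, and COL9A3, a collagen, had 0.632 in CRISPR against 1.57 in parental cells. TACC3, a spindle protein, had 0.452 in CRISPR against 1.02 in parental cells, and H1-10, a linker histone, had 0.181 in CRISPR against 0.399 in parental cells. The highest shift was that of SMARCE1, a chromatin remodelling subunit, with 1.11 in CRISPR against 0.5465 in parental cells and a shift of 1.02. HMGB2, a chromatin protein, had 1.38 in CRISPR against 0.716 in parental cells and COL4A1, a basement membrane collagen, had 1.81 in CRISPR against 0.954 in parental cells, both just under 2-fold. SMARCE1 was the 1 gene of the 10 highest shifts past 2-fold.

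ATF4, a transcription factor made when initiation is curbed under stress, had a share of 1.18 in AZC + MG132, 0.350 in CRISPR and 0.934 in parental cells. Its window held 30052 bases of depth in treated cells, against 1064 in CRISPR cells and 1483 in parental cells. The shift was 0.32 for AZC + MG132 over parental and -1.40 for CRISPR over parental. FOSL1, an AP-1 factor, had 0.347 in AZC + MG132, 0.738 in CRISPR and 1.35 in parental cells, a shift of -1.86 for AZC + MG132 over parental. MYC had 1.55 in AZC + MG132, 2.14 in CRISPR and 1.92 in parental cells.

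CRISPR and AZC + MG132 were also set side by side, though neither is the control of the other. The lowest shift for CRISPR over AZC + MG132 was again that of SF3B4, at -1.73, followed by H1-10 at -1.59. CCDC47, an ER protein, had 0.307 in the CRISPR table against 0.913 in the AZC + MG132 table. POLR2A, the large subunit of RNA polymerase II, had 0.434 in CRISPR against 0.868 in AZC + MG132 cells. The highest was that of WDR75, a ribosome biogenesis factor, with 1.78 in CRISPR against 0.573 in AZC + MG132 cells, and GART, an enzyme of purine synthesis, had 1.12 in CRISPR against 0.372 in AZC + MG132 cells. EIF2S1, the alpha subunit of the initiation factor eIF2, had 1.79 in CRISPR against 0.697 in AZC + MG132 cells. In the parental table the share was 1.39 for WDR75, 0.726 for GART and 1.205 for EIF2S1, each between those of the other tables.

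A strong stop peak in all 3 tables was found for some genes, chosen after values were seen. In 71 genes (1.71%) the final 5 bins stood 4-fold or more above the 20 bins ahead of the window in every table. In 61 genes (1.47%) they stood 4-fold or more below. SSR2, a subunit of the ER translocon, had a stop peak of 3.05 in AZC + MG132, 2.57 in CRISPR and 2.79 in parental cells. KDELR1 had 2.43 in AZC + MG132, 2.80 in CRISPR and 2.37 in parental cells, and RPS26, a ribosomal protein, had 3.20 in AZC + MG132, 2.88 in CRISPR and 2.65 in parental cells. RPS26 had a share of only 0.562 in AZC + MG132, 0.732 in CRISPR and 0.645 in parental cells, so its window as a whole lay below its coding mean despite the peak. SKP1, a subunit of ubiquitin ligases, lay the other way, with a stop peak of -6.28 in AZC + MG132, -7.51 in CRISPR and -7.84 in parental cells and a share of 0.286 in AZC + MG132, 0.366 in CRISPR and 0.513 in parental cells.

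Families picked after their values were seen gave 3 further descriptions. Cytochrome c oxidase genes were picked by symbol (COX4 to COX8), which does not show that each member is a subunit. Of these 10 genes, 3 were 2-fold lower in the AZC + MG132 table than in the parental table, against 9.87% of all genes. They were COX7B, COX7A2L and COX5B, and the median shift of the 10 was -0.74. COX5A had 1.16 in AZC + MG132, 1.45 in CRISPR and 2.07 in parental cells, and COX6B1, at 1.16 in AZC + MG132, 1.25 in CRISPR and 0.996 in parental cells, was the 1 member with a shift above 0. Of 10 SRSF splicing factors the median shares were 0.693 in AZC + MG132, 0.984 in CRISPR and 0.950 in parental cells. SRSF3 was the 1 past 2-fold for AZC + MG132 over parental, lower, near the 9.87% of all genes. Among TMED cargo receptors TMED3 had 0.485 in the AZC + MG132 table and 0.326 in the CRISPR table, against 1.77 in the parental table.

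Coding length was resolved for few genes, and 3445 of the 4146 have none. For 63 genes whose coding sequence was resolved at 200 to 300 bases, where 10% of the length is shorter than a footprint, the median share was 1.14 in AZC + MG132, 1.35 in CRISPR and 1.29 in parental cells. For genes of 300 to 400 bases it was 0.867 in AZC + MG132, 1.02 in CRISPR and 1.14 in parental cells, and for genes of 400 to 600 bases it was 0.982 in AZC + MG132, 1.16 in CRISPR and 1.198 in parental cells. For genes of 600 to 800 bases it was 0.841 in AZC + MG132, 1.16 in CRISPR and 1.18 in parental cells, so the medians did not change steadily with length. By level, the lowest quartile of genes had medians of 0.887 in AZC + MG132, 0.996 in CRISPR and 1.051 in parental cells, and the highest had 0.933 in AZC + MG132, 1.07 in CRISPR and 1.09 in parental cells. Windows with no depth at all were found for 28 genes in AZC + MG132, 32 in CRISPR and 17 in parental cells. Over all 17641 transcripts they were 9.09% in AZC + MG132, 12.8% in CRISPR and 5.45% in parental cells.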

How the data were processed

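The deposited tables, 1 per group, hold log2(x + 1) values, to 2 decimals as the authors deposited them, in 400 bins per transcript; x is read as the summed read depth of a bin. The coding bins also held the deposited value of the row above, which was subtracted; 100% of low window bins were then whole within rounding. The submitters' processing notes name Bowtie2, TopHat2 and hg19, and nothing read here says how both libraries of a group were joined. Gene names came from RefSeq (GRCh38.p14), for names only.

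Shares and shifts were computed in Python 3 with numpy and pandas. A gene is its transcript with the highest mean level. The minimum was the median, over transcripts, of the depth of the first 180 coding bins (4455, 8024 and 6632 bases in the AZC + MG132, CRISPR and parental tables). Genes just inside it were DUSP14 and NUP35, with parental shares of 1.51 and 1.24, and just outside NIF3L1 and ZUP1, with 0.978 and 1.14. A pseudocount of 30 bases was used in shifts and steps. No shift is given where both windows held 90 bases or fewer. In coding sequences under 200 bases the bins run past the stop, so 38 such genes, or genes that could not be told from them, were left out. Depth counts bases and not fragments, so no counting interval was computed.

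Named genes were the 10 largest shifts in each direction per comparison and the 10 highest and 10 lowest parental shares (at least 4 times the minimum, 120 of 180 bins covered), list members with the largest shift or highest level, and a fixed set; other names were chosen after their values were seen. Members, lists and measures were chosen with earlier results of these data known.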

Additional observations from a re-analysis of the deposited data

How the results depend on the processing

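No paired analysis was possible because each group has 1 table and no column per library; for the same reason no library could be left out. Median shares and shifts over all genes compared moved by less than 10% or 0.1 (log2) under each alternative. Medians of gene lists and shifts of named genes were less steady, counted once per alternative and comparison. There 14 list medians moved by more than 0.1, 51 named-gene shifts fell under 2-fold and 68 rose to 2-fold or more. The other 2209 values, except the reversals given below, kept their label. With the last 10 bins the median end step was 0.36 in AZC + MG132 and 0.30 in CRISPR. The percent of compared genes past 2-fold moved most, given here as higher and lower for AZC + MG132 over parental, then CRISPR over parental, then CRISPR over AZC + MG132. It was 5% and 13.9%, 7.51% and 12%, and 15.2% and 10.1% with the minimum at the lower quartile, and 0.322% and 3.46%, 0.161% and 0.967%, and 3.79% and 0.806% at 4 times the median. With every transcript in place of 1 per gene it was 2.6% and 9.84%, 3.82% and 8.38%, and 10.7% and 6.74%, and there the counts moved because more rows were compared. With the last 10 bins, 5.75% were higher for AZC + MG132 over parental, 6.89% higher and 12.2% lower for CRISPR over parental, and 11.2% lower for CRISPR over AZC + MG132. Against coding bins 21 to 180, 3.78% were higher for AZC + MG132 and 5.48% for CRISPR, both over parental. Counted from the median shift, 4.24% were higher and 6.06% lower for AZC + MG132 over parental, and 6.75% higher for CRISPR over AZC + MG132. With 120 of 180 bins covered, 2.01% were higher and 5.95% lower for CRISPR over parental, and 3.74% lower for CRISPR over AZC + MG132. With the last 10 bins the shift of PSME1 turned from -1.24 to 0.13 for AZC + MG132 and from -1.75 to 0.34 for CRISPR over parental. For CRISPR over parental, that of KIF23 turned to 0.010 and that of UPF3B to -0.78. For the other moves the cause was not tested. Keeping short coding sequences or genes at the floor, both added after seeing the data, moved no count by over 1.5 times. Shares by protein feature were not run, as no protein sequences were used here.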
